A study of Mus musculus with 568 samples.

Results

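Germ cells that matured in vitro inside reconstituted ovaries (rOvaries) were chosen by their measured *Nanog* and *Sycp3* levels: a well was Nanog-high when it held at least 200 RPM (reads of a gene per 1000000 reads of the well) of *Nanog* and less than 400 RPM of *Sycp3*, after wells with fewer than 4000 genes, fewer than 10000 reads or over 5% mitochondrial reads were left out. This choice gave 96 of the 462 rOvary wells that passed the quality limits, or 96 of the 552 wells of the whole single-cell data set. *Nanog* and *Sycp3* chose the cells, so their levels are a description, and every other gene described here came from the same libraries. No difference between wells was therefore tested.

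The cells descended from XRep, a female hybrid mouse embryonic stem cell (ESC) line that carries a *Mus musculus* 129S1/SvImJ X chromosome (Xmus) and a *Mus castaneus* CAST/EiJ X chromosome (Xcas). All groups, the ESCs included, share a truncated *Tsix* on Xmus, a GFP reporter on Xmus (XGFP) and a tdTomato reporter on Xcas (XTomato), both placed in *Hprt*, which disrupts that gene on both X chromosomes. They also share an rtTA cassette in *Rosa26* with doxycycline-inducible *Prdm1*, *Prdm14* and *Tfap2c* transgenes, whose reads cannot be told apart from those of the endogenous genes. ESCs were turned into epiblast-like cells (EpiLCs) and then, under doxycycline, into primordial germ cell-like cells (PGCLCs). The paper's methods list doxycycline for the PGCLC step only. PGCLCs were sorted at day 5 for SSEA1 and CD61 and by XGFP. They were then cultured for 6 days with somatic cells of E13.5 female gonads and mesonephros. XGFP+ constitutive wells came from XGFP+ PGCLCs and kept the reporter, while XGFPhigh, XGFPintermediate and XGFPlow wells came from XGFP− PGCLCs and were sorted again by their reporter level. Unsorted ESC wells were sequenced on another flow cell, so cell type and flow cell cannot be told apart in any comparison with them. No culture or aggregate is named for a well, so each sorted population counts as 1 sample.

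*Nanog* encodes a homeodomain factor of the pluripotency network, which runs in naive ESCs together with *Esrrb*, *Klf2*, *Zfp42* and *Nr0b1* and is used again by primordial germ cells from their specification until they colonise the gonad. Female germ cells then switch on *Dazl*, shut down the pluripotency genes, respond to retinoic acid and BMP by inducing *Stra8*, and enter meiotic prophase, in which SYCP3 builds the chromosome axis. Cells that keep *Nanog* high inside a gonadal aggregate thus carry a transcript that germ cells normally lose before meiosis.

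Nanog-high wells were somewhat less deeply sequenced than the rest, by their medians. Their total read counts ran from 133101 to 1043269 with a median of 511341, against 617603 over all other rOvary wells. The median was 332162 against 367458 in the other XGFP+ constitutive wells and 624274 against 661546 in the other XGFPhigh wells. Median numbers of genes were 8370.5 against 8046.5 and 8076 against 8051. The 10 empty wells were left out. Index numbers recur between lanes 2 and 3, where they mark different wells. Wells held 1 sorted cell each by the protocol, and no doublet caller was run.

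Nanog-high cells were found mostly in the populations with the brightest XGFP, the reporter of an active Xmus. They made up 38 of 88 XGFP+ constitutive wells (43.2%, exact 95% interval 32.7% to 54.2%) and 48 of 125 XGFPhigh wells (38.4%, 29.8% to 47.5%). In contrast, 4 XGFPintermediate wells (3.13%, 0.858% to 7.81%) and 6 XGFPlow wells (4.96%, 1.84% to 10.5%) were Nanog-high. The intervals are Clopper-Pearson intervals and cover counting error only, not the spread between cultures, and the sort on XGFP sets which cells each population holds. Sequencing lane moved with the share in XGFPhigh: 2 of 14 wells of lane 2 (14.3%, 1.78% to 42.8%) and 46 wells of lane 3 (41.4%, 32.2% to 51.2%) were Nanog-high, and all XGFP+ constitutive wells were in lane 2. The part of the lane in these shares was not tested.

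**Figure D1:**
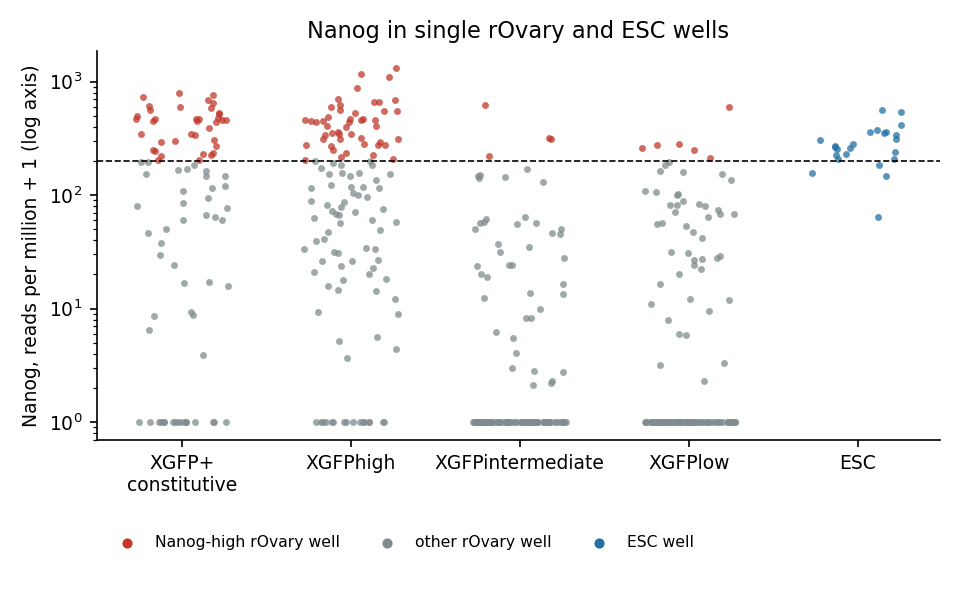
*Nanog* in each passing rOvary well and ESC well, in RPM plus 1 on a log axis, by sorted population; each point is 1 well and the dashed line is the limit of 200 RPM. Red points, the 96 Nanog-high wells, gather in the XGFP+ constitutive and XGFPhigh columns, and few lie in the other 2 rOvary columns.

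*Nanog* (chr6:122707489-122714633, plus strand, mm10) ran from 203.3 to 785 RPM with a median of 451 RPM in the XGFP+ constitutive members, and from 202.5 to 1305 RPM with a median of 421 RPM in the XGFPhigh members. In the other wells of the same populations the medians were 19.8 and 32.5 RPM, and single ESCs spanned 62.6 to 563 RPM with a median of 265.6 RPM. The limit cut through a continuous distribution. The nearest wells outside it held 197.8 and 198.04 RPM, the nearest inside 202.5 and 203.3 RPM, and 39 wells lay between 150 and 250 RPM, 16 of them members. No well with at least 200 RPM of *Nanog* reached the limit on *Sycp3*, so that limit removed none. *Sycp3* peaked at 106.2 RPM in the members, with a median of 5.11 RPM, against a maximum of 7251 RPM in the other wells.

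The remaining markers that had been listed for these cells were each seen in a part of them. *Tdgf1* (chr9:110939603-110946158, minus strand) encodes Cripto, the co-receptor of Nodal. It reached 10 RPM in 20 of 38 XGFP+ constitutive members and 3 of 50 other wells, and in 33 of 48 XGFPhigh members and 10 of 77 other wells, against 24 of 24 ESC wells. Its level spanned 0 to 880 RPM with a median of 18.9 RPM in the first group of members and 0 to 604 RPM with a median of 65.6 RPM in the second, while both groups of other wells had a median of 0 and overlapped with the members up to 165.9 RPM. *Nr0b1* (chrX:86191764-86195947, plus strand), an orphan nuclear receptor of the naive network, reached 10 RPM in 27 of 38 and 43 of 48 members, in 9 of 50 and 34 of 77 other wells, and in 23 of 24 ESC wells. Its median was 70.2 RPM in the XGFP+ constitutive members, 179.4 RPM in the XGFPhigh members and 0 RPM in the other wells of either population.

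*Fgf4* and *Trib3* were seen in fewer members than *Tdgf1* and *Nr0b1*. *Fgf4* (chr7:144847367-144865243, plus strand), the ligand that drives ERK signalling in pluripotent cells, was at or above 10 RPM in 15 of 38 and 10 of 48 members, with medians of 0, and in 0 of 50 and 1 of 77 other wells. All 24 ESC wells held it, at 49.01 to 184.6 RPM. *Trib3* (chr2:152337422-152344032, minus strand), a pseudokinase induced by the transcription factor ATF4, was at or above 10 RPM in 7 of 38 and 18 of 48 members, in 4 of 50 and 5 of 77 other wells, and in 21 of 24 ESC wells. Neither gene passed the filter on mean level described next. Of the 4 markers other than *Nanog*, 10 members had none at 10 RPM, 21 had 1, 36 had 2, 22 had 3 and 7 had all 4. Among the other rOvary wells, 66 had 1, 14 had 2, 3 had 3 and none had all 4, while 20 of 24 ESC wells had all 4 and the other 4 had 3. With every well thinned to 100000 reads, at least 1 read of *Tdgf1* was left in 20 of 38 and 32 of 48 members and in 3 of 50 and 9 of 77 other wells, against 21, 35, 3 and 12 wells at their own depth.

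Germ cell identity was kept in most members. *Dazl* encodes the RNA-binding protein that licenses germ cells for sexual differentiation. A well was called *Dazl*-positive above 1 on the scale of the natural log of 1 plus reads per 10000. The paper also kept only cells with *Dazl* above 1, but describes its scale as log2 counts per 10000 or as scaled expression. The limit used here was passed by 80 of 96 members. From XGFP+ constitutive to XGFPlow these were 33 of 38, 43 of 48, 2 of 4 and 2 of 6. Of the other wells, 43 of 50, 75 of 77, all but 10 and all but 26 passed it, and no ESC well did. *Stra8* and *Tdgf1* were detected together in 46 members, *Tdgf1* without *Stra8* in 11, and *Dazl* above its limit together with *Tdgf1* in 48. *Stra8* did not reach 10 RPM in any ESC well, and *Dazl* did in 1 of 24. *Nanog* chose the wells and so cannot speak for the label. Of the other listed markers *Nr0b1* and, in part, *Tdgf1* were seen more often in members, which mostly also held germ cell transcripts. These markers were listed with earlier results of these data known, so they cannot speak for the label either. Many other XGFPhigh wells held *Nr0b1* too. *Fgf4* reached 10 RPM in a minority of the members and in almost no other well of the same populations.

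Genes were compared on the log2(RPM + 10) scale as the mean of the members minus the mean of the other wells, first within XGFP+ constitutive (38 against 50 wells) and within XGFPhigh (48 against 77 wells), then averaged over both. Of the 6467 genes with a mean of at least 20 RPM, *Nanog* and *Sycp3* left out, 2.12% were higher by 1 or more in the members, 16 genes (0.247%) were lower by 1 or more, and the median difference was −0.01. The split between directions depended on the scale: 6.17% were higher and 1.90% lower with a pseudocount of 1, and 1.24% and 1.59% with ratios of mean RPM in place of means of logs. The sign was the same in both populations for 4384 genes. The mean of at least 20 RPM was taken over members and other wells together, so a gene high in the members alone could pass through them. The direction of such a gene was fixed by how it passed, among the lists and the leading genes alike. The percentages of genes higher and lower are the background for the lists that follow. They describe the average over both populations, and counts within 1 population have no such share beside them.

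Of 14 naive pluripotency genes, 10 could be compared, 9 of these were higher by 1 or more, none was lower by that much, and the median difference was 1.31. *Zfp42* (Rex1), a zinc finger protein used as a reporter of naive ESCs, spanned 107.1 to 2883 RPM with a median of 1129 RPM in XGFP+ constitutive members and 0 to 1907 RPM with a median of 125 RPM in the other wells. In XGFPhigh it spanned 316.2 to 4653 RPM with a median of 1490 RPM in members and 0 to 2398 RPM with a median of 271.2 RPM in the rest. The groups overlapped, but every member was above 100 RPM, and the difference was 2.44. *Klf2*, a Krüppel-like factor of the naive network, differed by 2.24, with medians of 295.05 and 334.3 RPM in the members of the 2 populations against 72.1 and 67.99 RPM. *Nr0b1* differed by 2.56, *Dppa5a*, an RNA-binding protein of pluripotent cells, by 1.90, *Tcl1* by 1.32, *Esrrb* by 1.31, *Prdm14* by 1.26 and *Tfcp2l1* by 1.12. *Prdm14* reads may come from the transgene. *Klf5* was the gene short of the limit, at 0.59. Ratios of mean RPM put 5 of the 10 past it. *Klf4*, *Tbx3*, *Nr5a2* and *Fgf4* did not reach a mean of 20 RPM, and *Klf4* was at or above 10 RPM in 8 of 38 and 7 of 48 members against 7 of 50 and 7 of 77 other wells.

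**Figure D2:**
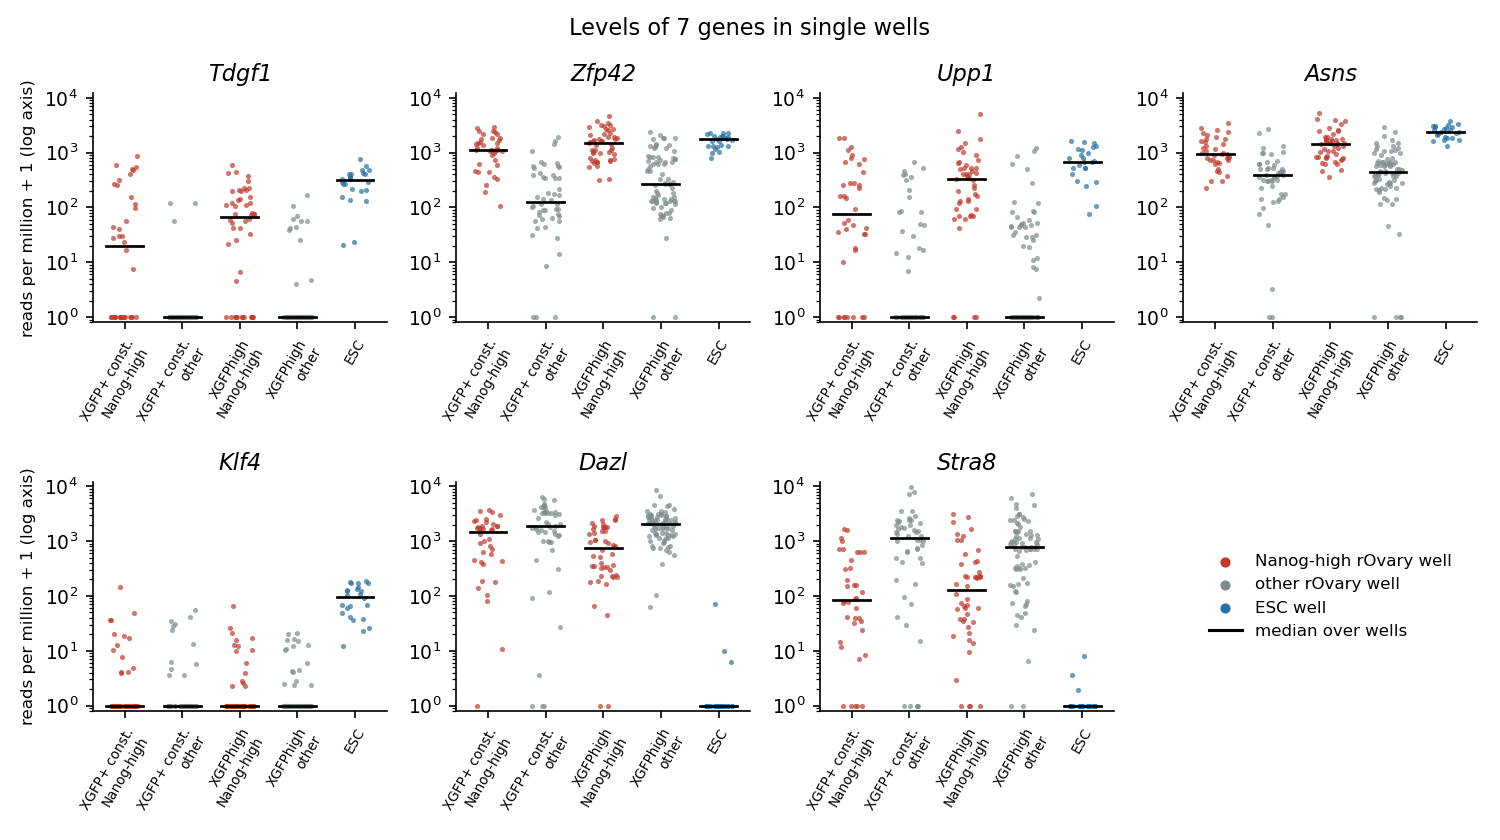
Levels of 7 genes in RPM plus 1 on log axes, for Nanog-high and other wells of XGFP+ constitutive and XGFPhigh and for single ESCs; each point is 1 well and the black bar is the median. *Zfp42*, *Upp1* and *Asns* lie higher in Nanog-high wells and *Stra8* lower, *Klf4* is near 0 in rOvary wells of both kinds, and *Dazl* is present in rOvary wells and almost absent in ESCs.

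Core pluripotency genes followed: 10 of 12 could be compared, 6 were higher by 1 or more, none was lower, and the median difference was 1.22. *Tdgf1* differed by 2.00, *L1td1*, an RNA-binding protein derived from a LINE element, by 1.77, *Dppa2* by 1.57, *Pou5f1* (Oct4) by 1.47 and *Sox2* by 1.08. *Pou5f1* had a median of 99.7 and 134.5 RPM in the members against 32.98 and 62.99 RPM in the other wells, and ranges overlapped, from 19.8 to 364.3 RPM and from 0 to 360.99 RPM in XGFPhigh. *Utf1*, *Dppa4*, *Sall4* and *Trim71* differed by 0.86, 0.70, 0.17 and 0.17. Formative genes of the postimplantation epiblast were scarce, since 2 of 10 could be compared and neither differed by 1. *Fgf5* reached 10 RPM in 1 and *Otx2* in 20 of the 86 members of XGFP+ constitutive and XGFPhigh.

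The octamer ATGCAAAT, to which POU factors such as OCT4 bind, was searched on both strands in windows from 250 bases before to 50 bases after each RefSeq start site (GRCm38.p6). It was found at 2 of the 9 leading higher genes that have a window at 1 of 9 naive genes and at 0 of 8 core genes with a window, and at 532 of 27025 genes with windows (1.97%), or in 1.74% of all windows. The matches are shown because they belong to genes with large differences between the wells; capitals mark the octamer. They lie at chr8:43307178-43307205, upstream of and on the opposite strand to the start site of *Zfp42*, and at chr5:104435972-104435999, 210 bases before that of *Spp1*, both read on the plus strand.
Zfp42: ttgctcagttATGCAAATgcctcttcag
Spp1: cacatttgaaATGCAAATggaaaaagca
A match describes letters in a window and says nothing of binding in these cells.

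The 12 genes with the largest positive differences, among genes with the same sign in both populations, were *Upp1*, *Nr0b1*, *Zfp42*, *Slc7a3*, *Bcat1*, *Spp1*, *Klf2*, *Spic*, *Aqp3*, *Fbxo15*, *Tdh* and *Pfkp*, from 2.63 to 2.01. *Upp1* (chr11:9118103-9136170, plus strand) encodes uridine phosphorylase, which splits uridine into uracil and ribose phosphate. Its level spanned 0 to 1881 RPM with a median of 75.4 RPM in XGFP+ constitutive members and 0 to 5111 RPM with a median of 334.6 RPM in XGFPhigh members, and the median was 0 in both groups of other wells. *Slc7a3*, an X-linked transporter of cationic amino acids, had medians of 390 and 773 RPM in members against 118.6 and 133.5 RPM. *Bcat1*, the cytosolic branched-chain amino acid transaminase, had medians of 247.6 and 503 RPM against 39.7 and 97.3 RPM. *Tdh*, a mitochondrial threonine dehydrogenase known from mouse ESCs, differed by 2.01 with medians of 155.7 and 194.6 RPM in members against 9.64 and 37.95 RPM. *Spp1*, the secreted phosphoprotein osteopontin, differed by 2.24, although its highest wells, at 7749 and 8579 RPM, were not members. *Spic*, an Ets-family factor, was at or above 10 RPM in 29 of 38 and 35 of 48 members against 4 of 50 and 13 of 77 other wells, and differed by 2.19. *Aqp3*, a channel for water and glycerol, differed by 2.13 and *Fbxo15*, an F-box protein of ESCs, by 2.02.

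Genes of amino acid supply that ATF4 controls were higher as well. Of 18 genes of this list, 10 could be compared, 6 were higher by 1 or more and none was lower, with a median of 1.05. *Asns*, asparagine synthetase, spanned 222.6 to 3470 RPM with a median of 950 RPM in XGFP+ constitutive members and 0 to 2711 RPM with a median of 382.7 RPM in the other wells. In XGFPhigh it spanned 358.4 to 5208 RPM with a median of 1421 RPM in members against 0 to 2982 RPM with a median of 442 RPM. The difference was 1.69, and the ranges overlapped. *Psat1* and *Phgdh*, both of serine synthesis, differed by 1.34 and 1.10, *Cth*, of cysteine synthesis, by 1.15, and *Mthfd2* and *Shmt2*, of mitochondrial folate metabolism, by 1.07 and 1.03. *Atf4* itself differed by 0.44, and the stress genes *Ddit3* and *Atf3* did not reach the mean level. In XGFP+ constitutive alone 3 of the 10 genes were past the limit and in XGFPhigh alone 6, and a *Nanog* limit of 400 RPM left 3.

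The composite element TGATGNAA, which ATF4 and CEBP factors bind, was searched in the same windows on both strands. It was present at 6 of the 16 genes of the list that have a window (37.5%), at 1219 of all 27025 genes (4.51%), in 3.97% of all windows and at none of the 9 leading higher genes with a window. The list holds genes known as ATF4 targets, so this share is not independent evidence. The matches are printed to show the element beside the gene values, and capitals mark it. *Slc7a11* holds a further match, whose last bases are shared with an octamer.
Asns (chr6:7693215-7693242, minus strand): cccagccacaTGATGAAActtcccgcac
Chac1 (chr2:119351039-119351066, minus strand): ctggcaggagTGATGCAAcggcagggaa
Trib3 (chr2:152344029-152344056, plus strand): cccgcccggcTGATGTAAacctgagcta
Atf3 (chr1:191183426-191183453, plus strand): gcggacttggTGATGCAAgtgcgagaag
Nupr1 (chr7:126625563-126625590, plus strand): aagccctgtcTGATGCAAtctggccctt
Slc7a11 (chr3:50443662-50443689, minus strand): ctcatgtggcTGATGCAAacctggagaa
Of these 6 genes, *Asns* differed by 1.69 and *Chac1*, a glutathione-degrading enzyme, by 0.79, and *Trib3*, *Atf3*, *Nupr1* and *Slc7a11* did not reach a mean of 20 RPM.

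Signalling genes were mixed. Of 15 Nodal pathway genes, 9 could be compared: *Tdgf1* (2.00, its direction fixed as above) and *Gdf3*, a Nodal-related ligand (1.60), were higher by 1 or more. *Nodal* itself differed by 0.65, its receptor *Acvr2b* by −0.17, its inhibitors *Lefty1* and *Lefty2* by −0.10 and 0.46, and the median of the list was 0.15. Of 11 FGF and ERK response genes, 5 could be compared and only *Etv5*, an Ets factor that is also expressed in naive cells, was past the limit, at 1.71. The receptors *Fgfr1* and *Fgfr2* differed by 0.33 and −0.05, the ERK phosphatase *Dusp9* by less than 0.01 and the early response gene *Egr1* by −0.48. The median of this list was close to 0.

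Lower in Nanog-high cells were genes of meiotic entry. *Stra8*, the retinoic acid-induced gatekeeper of meiosis, led the 12 most negative differences at −2.30. It spanned 0 to 1676 RPM with a median of 82.5 RPM in XGFP+ constitutive members and 0 to 9815 RPM with a median of 1151 RPM in the other wells, and 0 to 3188 RPM with a median of 130 RPM against 0 to 7281 RPM with a median of 779 RPM in XGFPhigh. Still, 31 of 38 and 42 of 48 members held at least 10 RPM of it. *Rec8*, the meiotic cohesin subunit, differed by −1.24, with 11 of 38 and 7 of 48 members at or above 10 RPM against 36 of 50 and 40 of 77 other wells. Of 13 meiotic entry genes, 5 could be compared, and *Stra8* and *Rec8* were the ones past the limit, with a median of −0.76 for the list.

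Other leading lower genes were the X-linked homeobox genes *Rhox9* (−1.55) and *Rhox6* (−1.41), *Slc25a31* (−1.35), the ADP/ATP carrier of germ cells, *Gstm5* (−1.27), *Psme2* (−1.25), a subunit of a proteasome activator, *Txnip* (−1.15), *Suv39h1* (−1.12), an H3K9 methyltransferase, *Hspa4l* (−1.09) and *Dazl* (−1.08). *Rhox9* had a median of 107.6 RPM in XGFP+ constitutive members against 254.97 RPM, and of 11.1 RPM in XGFPhigh members against 236.6 RPM. *Dazl* spanned 0 to 3654 RPM with a median of 1452 RPM in XGFP+ constitutive members against 0 to 6449 RPM with a median of 1860 RPM, and 0 to 2821 RPM with a median of 736 RPM in XGFPhigh members against 61.7 to 8585 RPM with a median of 2018 RPM. The difference in *Dazl* was −0.54 in the former and −1.62 in the latter. *Rhox6* and *Rhox9* belong to a family of related copies, and reads that match several copies may have been split.

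Of 16 genes of gonadal germ cells, 12 could be compared, and *Dazl* and *Slc25a31* were lower by 1 or more while *Morc1*, a transposon repressor that is expressed in naive ESCs too, was higher by 1.25. *Ddx4*, the germ cell RNA helicase, differed by −0.36 and the piRNA pathway gene *Mael* by −0.46, with a list median of −0.36. None of the 10 prophase genes compared (of 19) was past the limit, although all 10 differences were negative, from −0.98 (*Sycp2*) to −0.18 (*Syce2*). The limit on *Sycp3* bears on this list, since it goes with the same cells, but it removed no well.

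All 10 genes of germ cell specification could be compared, and *Tfap2c* (1.31), *Prdm14* (1.26) and *Alpl* (1.23), tissue-nonspecific alkaline phosphatase, were higher by 1 or more. The reads of *Prdm14* and *Tfap2c* may include those of the transgenes. Among DNA methylation genes 2 of 8 compared were past the limit: *Dnmt3l* (1.98), the cofactor of de novo methylation, with medians of 108.4 and 137.6 RPM against 10.5 and 25.7 RPM, and the demethylation enzyme *Tet2* (1.26). *Dnmt3a* differed by 0.65, *Dnmt3b* by 0.33, *Dnmt1* by 0.10 and *Uhrf1* by 0.37. Of the mesoderm and endoderm lists, no gene reached a mean of 20 RPM. The 2-cell-like state could not be described, since 7 of its 8 listed genes were not matched and the remaining one was below that mean. Cell cycle inhibitors and p53 targets gave 5 genes to compare, none past the limit, with a median of 0.28.

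For some gene groups the values of the 2 populations lay apart. All XGFP+ constitutive wells were in lane 2 and most XGFPhigh wells were in lane 3. Median total reads of the members were 332162 in XGFP+ constitutive and 624274 in XGFPhigh. Population, lane and depth thus cannot be told apart where the 2 populations are contrasted, here and in the next paragraph. The counts within 1 population, here and in the next paragraph, are given without the share of all genes past the limit in that population. Among genes of G2 and mitosis, 12 of 16 were higher by 1 or more in XGFP+ constitutive (median 1.22) and none in XGFPhigh (median 0.06), so that the count of 5 of 16 in the average over populations describes neither. *Ube2c*, which loads ubiquitin for the anaphase-promoting complex, differed by 2.26 and 0.87, *Top2a* by 1.50 and −0.56, and *Cenpf* by 1.08 and −0.74. Among the other wells, the median of *Top2a* was 327.9 RPM in XGFP+ constitutive and 408 RPM in XGFPhigh, and it was 713 and 221.5 RPM in the members. Restricting both sides to wells with *Dazl* above its limit left 8 and 0 of 16, and ratios of mean RPM left 0 in the average. S phase genes differed little, with none of 16 past the limit and a median of 0.33.

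Glycolysis genes went the other way: 2 of 14 were higher by 1 or more in XGFP+ constitutive (median 0.19) and 9 of 14 in XGFPhigh (median 1.14). *Ldha*, lactate dehydrogenase, differed by 0.42 and 1.63, *Aldoa* by 0.31 and 1.54, *Eno1* by 0.16 and 1.27, and the glucose transporter *Slc2a3* by 1.49 and 2.22. *Slc2a3* had medians of 455 and 763 RPM in the members against 159.7 and 213.6 RPM. The first 3 of these genes lay at similar medians in the XGFP+ constitutive wells of either kind, with *Ldha* at 3252 and 2529 RPM. Of 10 specification genes, 7 were higher by 1 or more in XGFP+ constitutive and none was lower by that much. In XGFPhigh 2 were higher and 1 was lower by 1 or more. *Dppa3* (Stella), a maternal factor of early germ cells, differed by 2.08 and −0.38 and *Nanos3*, a germ cell survival factor, by 1.34 and −0.56. No gene of the prophase list was lower by 1 in XGFP+ constitutive, and 4 of 10 were in XGFPhigh. These are values of 1 sample each, and the difference between populations was not tested. The part of lane and depth in it was not tested either. When the members of both populations were set against each other, 9 of 6104 genes were higher in XGFPhigh members by 1 or more (0.147%) and 25 were lower (0.41%).

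**Figure D3:**
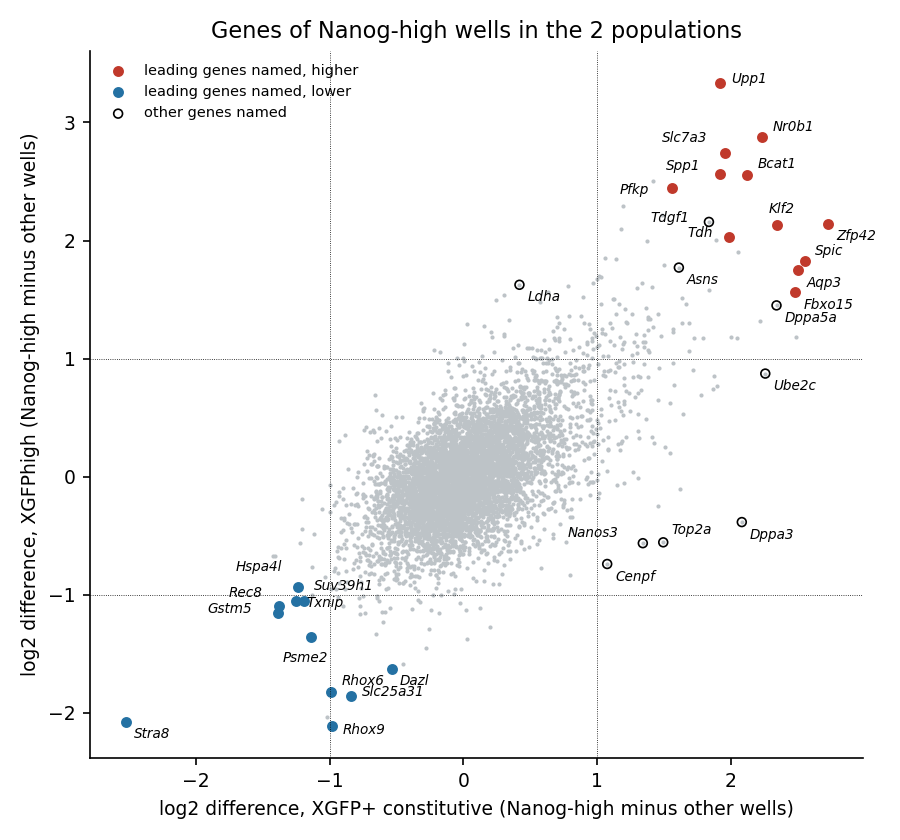
Log2 difference between Nanog-high and other wells in XGFP+ constitutive (horizontal axis) and XGFPhigh (vertical axis); each point is 1 of 6467 genes and dotted lines mark differences of 1 and −1. The named leading genes of either direction lie in the upper right and lower left corners, *Ldha* lies high on the vertical axis alone, and *Dppa3*, *Nanos3*, *Top2a* and *Cenpf* lie right of 1 but below 0.

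Against single ESCs, the Nanog-high cells lay close for some naive genes and lower for others. Of 6104 genes with a sufficient mean, 452 (7.4%) were higher by 1 or more in the members (mean of both populations) than in ESC wells and 250 (4.1%) were lower. *Nr0b1* (0.28), *Dppa5a* (0.25), *L1td1* (−0.02), *Zfp42* (−0.45), *Pou5f1* (−0.45) and *Klf2* (0.54) differed by less than 1. *Klf4* (−2.76), *Fgf4* (−2.86), *Tdgf1* (−2.44), *Tbx3* (−1.79), *Tcl1* (−1.48) and *Tfcp2l1* (−1.19) were lower, and of 13 naive genes compared none was higher and 5 were lower by 1 or more. Genes entered this comparison by their mean over members and ESC wells together. *Klf4*, *Tbx3* and *Fgf4*, which missed the mean among rOvary wells, entered it through the ESCs, so that their direction was fixed by how they passed and the count of 5 is not support for it. Several metabolic genes that were higher than in the other rOvary wells were lower than in ESCs, with differences of −3.11 for *Tdh*, −1.98 for *Upp1*, −1.27 for *Bcat1* and −1.04 for *Asns*. *Atf4* differed from ESCs by −2.14, and 6 of 12 ATF4 genes were past the limit with a median of −0.97. *Slc7a3* and *Pfkp* differed by −0.18 and −0.30.

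Germ cell genes set the members apart from ESCs. *Dazl* differed by 5.89, *Stra8* by 3.54, *Dppa3* by 3.41, *Rnf17* by 2.70, *Smc1b*, a meiotic cohesin subunit, by 2.50 and *Dnmt3l* by 1.90. With the same limit on how genes entered, of 9 gonadal germ cell genes compared 6 were higher by 1 or more with a median of 1.57, and of 10 specification genes 6 were, with a median of 1.10. *Smc1b* had medians of 122.2 and 76.6 RPM in the members, 94.9 and 151.2 RPM in the other wells of the same populations and 0 RPM in ESCs. *Hormad1*, a chromosome axis protein, was at or above 10 RPM in all 38 and 48 members and in 20 of 24 ESC wells.

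The X-linked allelic ratio, reads of Xmus over those of Xmus and Xcas, was averaged per well over at least 25 genes. In XGFP+ constitutive it ran from 0.414 to 0.517 with a median of 0.482 over 38 members, and from 0.279 to 0.537 with a median of 0.477 over 47 other wells. In XGFPhigh it ran from 0.0396 to 0.681 with a median of 0.474 over 48 members, and from 0.301 to 0.534 with a median of 0.472 over 77 other wells. ESCs had a median of 0.441 over 23 wells. Medians of members and other wells thus lay within 0.01 of each other in both populations, while 0 and 1 members were below 0.4 against 5 of 47 and 11 of 77 other wells. The depth behind each gene's ratio is unknown, as no allelic read numbers come with the ratios.

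Members with the lowest and the highest ratio stood apart. XGFPhigh well 34 had a ratio of 0.0396 with 617 RPM of *Nanog*, 1033 RPM of *Dazl* and 14.6 RPM of *Xist*, the RNA that silences the X chromosome. In this well 89.8% of genes were at or below a ratio of 0.1, against a median of 12.99% over the XGFPhigh members. XGFPhigh well 57 had a ratio of 0.681, with 661 RPM of *Nanog* and 1816 RPM of *Dazl*. Of the X-linked genes 11 (3.75%) were higher and 3 (1.02%) lower by 1 or more in the members, against 2.01% and 0.215% of 5585 autosomal genes. *Nr0b1* had a median allelic ratio of 0.0769 over 25 XGFP+ constitutive and 0.235 over 43 XGFPhigh members with a value, 0.117 over 22 ESC wells, and a range of 0 to 1 in each of the 3 groups. *Slc7a3* had medians of 0.337 over 36 and 0.414 over 47 members, 0.269 over 29 and 0.225 over 56 other wells, and 0.32 over 23 ESC wells.

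**Figure D4:**
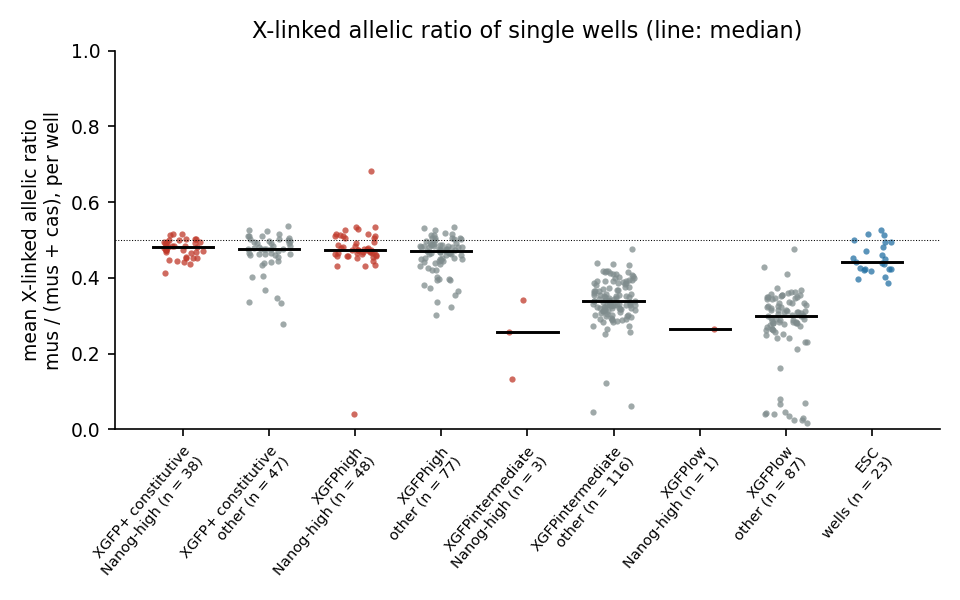
Mean X-linked allelic ratio per well, mus reads over mus plus cas reads, for Nanog-high and other wells of each population and for ESCs; points are wells, bars are medians and the dotted line marks 0.5. Most wells of XGFP+ constitutive and XGFPhigh lie near 0.5, XGFPhigh members at 0.0396 and 0.681 lie far from the rest, and the few members of the other populations lie below 0.4.

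The 10 Nanog-high wells from XGFPintermediate and XGFPlow were a mixed group. *Nanog* ran from 212.5 to 626 RPM in them. All held *Zfp42*, from 242.1 to 2321 RPM, and *Klf2*, from 30.3 to 446 RPM. *Dazl* was above the limit of 1 in 4 of them. XGFPintermediate well 2 held 626 RPM of *Nanog*, 542 RPM of *Tdgf1*, 88.1 RPM of *Fgf4*, 1634 RPM of *Upp1* and 593 RPM of *Dazl*, with an allelic ratio of 0.133. XGFPlow well 73 held 277.7 RPM of *Nanog*, 1711 RPM of *Dazl*, 2588 RPM of *Dppa3* and no *Tdgf1*. Allelic ratios were given for 3 of the 4 XGFPintermediate wells, at 0.133, 0.258 and 0.341, and for 1 of the 6 XGFPlow wells, at 0.265. The other wells had medians of 0.338 and 0.299. *Fgf4* was listed at 0 in all 6 XGFPlow members, and *Nr0b1* reached 10 RPM in 5 of them.

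Within the members, some pluripotency transcripts were lower where *Stra8* was higher. Across the 38 XGFP+ constitutive members the rank correlation with *Stra8* was −0.48 for *Tdgf1*, −0.55 for *Nr0b1* and −0.56 for *Zfp42*, and −0.47 for *Nanog*. Across the 48 XGFPhigh members it was −0.47 for *Tdgf1*, −0.37 for *Nr0b1*, −0.01 for *Zfp42* and −0.25 for *Nanog*. Other genes did not keep to this: *Klf2*, *Esrrb* and *Upp1* had coefficients of −0.34, −0.37 and −0.27 in XGFP+ constitutive members and of 0.14, −0.04 and 0.18 in XGFPhigh members. *Nanog* and *Fgf4* correlated at 0.59 and 0.24. These wells share libraries, lanes and sparse counts, the range of *Nanog* is cut at 200 RPM, and the coefficients describe these wells only.

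Markers of the surrounding somatic cells were at low levels in the members. Summed over the supporting cell markers they had a median of 14.3 RPM and a maximum of 114.8 RPM over the 96 members, 3 of which reached 100 RPM and 23 of which were at 0. The typical member had a higher sum than the typical other well, for which the median was 0 RPM over all rOvary wells. For the other wells of XGFP+ constitutive and XGFPhigh together it was 4.50 RPM, although the highest other rOvary well reached 3050 RPM. ESC wells, which were not cultured with gonadal cells, had a median of 17.5 RPM. What this sum reflects, and its part in the differences, was not tested. Of 11 markers of this list in the table, *Nr5a1* was at 0 in all members. *Foxl2*, *Wt1*, *Gata4* and *Lhx9* were also at 0 in all 38 XGFP+ constitutive members, but not in all 48 XGFPhigh members. The stroma sum was 0 in 73 of 96 members with a maximum of 48.1 RPM, and *Col3a1*, *Lum* and *Tcf21* were at 0 in all of them. The sums for mesonephros, endothelium and blood had maxima of 22.8, 122.1 and 1.91 RPM, and 94 of 96 members had no read of the blood markers. Mitochondrial reads had a median of 2.48% in XGFP+ constitutive members and 2.44% in the other wells, and of 1.86% and 2.40% in XGFPhigh.

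Bulk libraries of the PGCLCs that founded the rOvaries gave replicated values for the same genes, in libraries that took no part in choosing the wells. Their contrast is another one, of PGCLC groups at day 5 before rOvary culture, not of Nanog-high and other wells within a population. The same or the opposite sign in both is therefore only set side by side. With 4 libraries each, the test of XGFP+ against XGFP− PGCLCs called 2040 of 16281 genes (12.5%) in the positive and 1833 (11.3%) in the negative direction (limma, false discovery rate below 0.001). In a bulk library, fewer cells of a type and less RNA per cell cannot be told apart. The libraries of a group are described both as independent and as technical replicates of fewer clones by the study. If they are the latter, their p-values are too small.

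Of the 12 leading higher genes of the Nanog-high cells 8 were higher in XGFP+ PGCLCs and none lower. *Nr0b1* spanned 1433 to 1885 normalized counts in XGFP+ and 169.7 to 423 in XGFP− libraries, with means of 1691 ± 204.8 and 268.6 ± 111.7 (SD, n = 4 each), a log2 fold change of 2.73 ± 0.35 (SE) and a limma-adjusted p of 4.1e-06. *Upp1* had means of 254.6 ± 124.7 and 31.5 ± 9.94, a log2 fold change of 2.84 and an adjusted p of 1e-06 by limma. *Zfp42* had 15045 ± 1505 and 5757 ± 1171, a log2 fold change of 1.401 and a limma-adjusted p of 7.7e-05. *Bcat1*, *Spp1*, *Spic*, *Pfkp* and *Slc7a3* were called too, with log2 fold changes of 1.69, 1.92, 1.76, 1.66 and 1.04. None of the 8 called genes had overlapping libraries. The share of all tested genes without overlap is not given here, so this adds no support beyond the calls. *Nr0b1* and *Slc7a3* are X-linked. The groups were sorted by XGFP, the reporter of an active Xmus, so for X-linked genes X dosage and other differences cannot be told apart. *Slc7a3* missed the threshold when its recovered reads were tested with edgeR (adjusted p 1.46e-03).

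*Klf2*, *Aqp3*, *Fbxo15* and *Tdh* were not called, at log2 fold changes of 0.01, 0.91, 0.35 and −0.24 and adjusted p of 0.95, 0.0032, 0.15 and 0.078 by limma. With the replicate number as a block in the 8 PGCLC libraries, *Aqp3* (limma-adjusted p 2.93e-07), *Fbxo15* (9.82e-06) and *Tdh* (2.76e-04) passed, and the last was then lower in XGFP+ PGCLCs. *Nanog* itself had 12047 ± 1114 and 10077 ± 280.9 normalized counts, a log2 fold change of 0.25 and a limma-adjusted p of 0.023, which misses the threshold, while the same replicate block gave 6.08e-04. Its libraries did not overlap, from 10511 to 13178 against 9769 to 10437. ESC libraries held 31563 ± 1254.

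Of the other markers, *Fgf4* had 684 ± 303.7 against 54.9 ± 10.8 normalized counts, with a log2 fold change of 3.51 and a limma-adjusted p of 3.8e-09. *Tdgf1* had 2669 ± 462 against 1251 ± 88.9, with 1.08 and 1.9e-06 by limma. *Trib3* had 211.2 ± 90.1 against 108.5 ± 20.3 with overlapping libraries, 0.87 and an adjusted p of 0.0099 by limma, and was not called. ESC libraries held 11049 ± 747 of *Fgf4* and 10116 ± 2148 of *Tdgf1*.

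**Figure D5:**
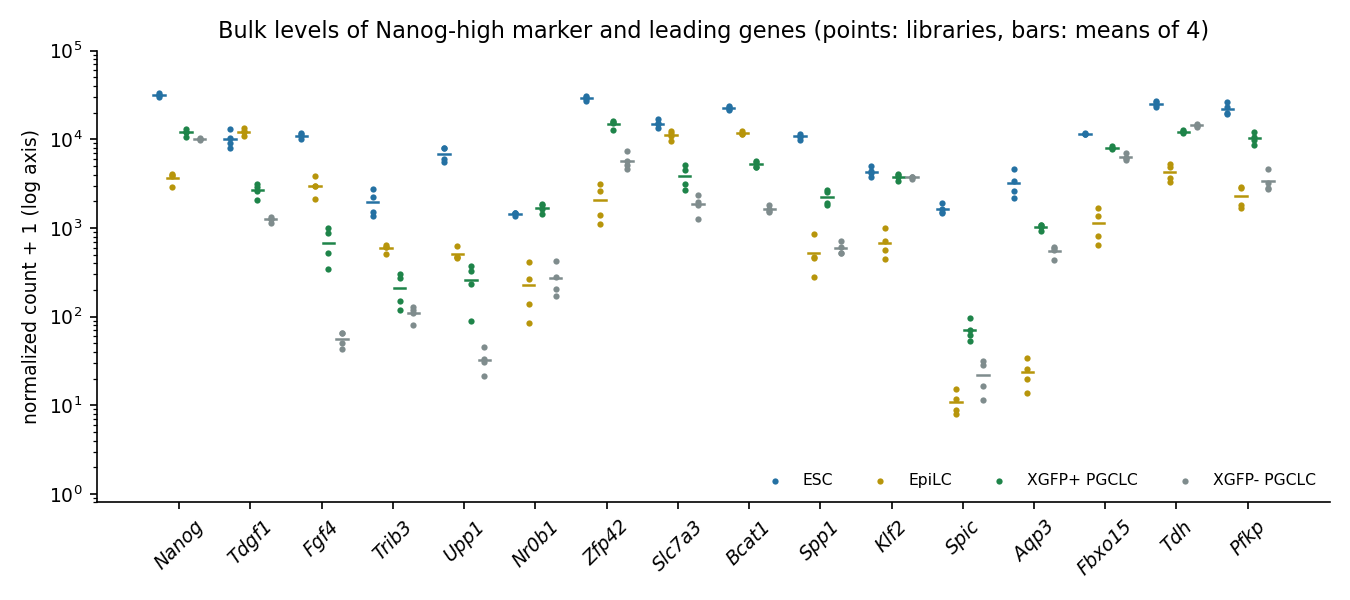
Bulk normalized counts plus 1 on a log axis for *Nanog*, *Tdgf1*, *Fgf4*, *Trib3* and the 12 leading higher genes by group, from ESCs and EpiLCs to PGCLCs with and without XGFP; points are libraries and bars are means of 4. XGFP+ lie above XGFP− PGCLCs for *Nr0b1*, *Upp1* and *Fgf4*, the groups overlap for *Klf2* and *Trib3*, and *Tdh*, which was not called, lies lower in XGFP+ PGCLCs.

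Of all genes that were higher by 1 or more in the Nanog-high wells and were tested in bulk, 60 (48.8%) were higher and 3 (2.44%) lower in XGFP+ PGCLCs. Of the leading lower genes, *Gstm5*, *Psme2*, *Rec8* and *Suv39h1* were lower in XGFP+ PGCLCs, and *Rhox6*, *Slc25a31* and *Dazl* were higher. *Dazl* had 4792 ± 2364 against 347.6 ± 312.3, 4.05 and a limma-adjusted p of 3.4e-07, while its difference between the wells, another contrast, was negative. *Rhox9* and *Txnip* were not called (limma-adjusted p 0.087 and 0.23) and passed with the replicate block in the 8 libraries (1.11e-05 and 7.56e-06).

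By list, 7 of 14 naive genes were higher in XGFP+ PGCLCs and none lower, with *Tbx3* at a log2 fold change of 4.49, *Dppa5a* at 2.06 and *Klf4* at 0.94, while *Prdm14* and *Pecam1* were not called. Core genes gave 3 of 12 (*Tdgf1*, *Dppa2* and *Dppa4*), and *Pou5f1* was not called at −0.15. Germ cell specification genes gave 1 of 10 higher (*Dppa3*), 4 lower (*Dnd1*, *Kit*, *Ifitm1* and *Ifitm3*) and a median of −0.42, in another contrast than that of the wells. Formative genes were split, with 4 higher and 3 lower of 10. DNA methylation genes gave 5 of 10 higher, with *Dnmt3l* at 3.27, and gonadal germ cell genes 12 of 15, with *Morc1* at 3.13. ATF4 genes gave 1 higher (*Cth*, 1.42) and 1 lower (*Slc7a11*) of 18, and *Asns* was not called, at 0.09. Glycolysis gave 2 higher, *Pfkp* and *Hk1*, and 1 lower of 16, and G2 and mitosis 1 higher of 16. The shares of the ATF4 list (5.56% in either direction) and of glycolysis (12.5% and 6.25%) did not exceed the background of the whole test.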

How the data were processed

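Read counts per gene in single wells were deposited by the authors, without scaling, for 15718 genes after STAR alignment to mm10 and counting. They were divided here by each well's total to give RPM. The authors also deposited each gene's allelic fraction, Xmus reads over Xmus plus Xcas reads, for 219 X-linked genes and 440 wells. The bulk table holds a scaled signal for 16335 genes, for which the authors divided HTSeq 0.6.1 counts by DESeq2 1.16 size factors. Whole reads were recovered from the PGCLC libraries (29778299 to 43950062 reads, 100% of values within 0.05 read) for edgeR 4.0.16 and DESeq2 1.42.0 as alternatives. 4 columns of another study were not used.

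Bulk PGCLCs were tested with limma 3.58.1 (limma-trend, log2 of value plus 1, mean above 10, all 16 libraries, Benjamini-Hochberg FDR below 0.001). Same-numbered libraries deviated together (r of 0.2535, 0.1347, 0.2001 and 0.3066), which was taken as pairing. The main test had no replicate block, so its p-values and calls do not use this pairing. Wells were compared without a test, by log2(RPM + 10) with a limit of 1. Scripts were tested on simulated data. Named genes are the 5 markers, members of the gene lists and the 12 largest differences of either sign (mean of at least 20 RPM, same sign in both populations, no predicted genes). Members, markers and lists were chosen with earlier results of these data known. Some genes that these choices name are not reported here. Coordinates are from GENCODE vM21 on mm10, sequences from RefSeq (GRCm38.p6).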

Additional observations from a re-analysis of the deposited data

Results flagged for a closer look

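A library lay far from its group in 1 of 54 groups of 4 bulk libraries examined over the named genes: for *Slc25a31*, XGFP− PGCLC replicate 4 held 31.95 normalized counts and the other 3 held 15.4 to 17.3, a gap of 0.883 of the whole range, which is above Dixon's critical value at 95%. Chance alone flags about 1 in 20 groups.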

How the results depend on the processing

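The share of Nanog-high wells depended on the limit. With 100 RPM it was 56.8%, 52.8%, 7.81% and 12.4% from XGFP+ constitutive to XGFPlow, with 400 RPM 25%, 20.8%, 0.781% and 0.826%, and in lane 2 alone 14.3% of XGFPhigh and 0% of XGFPlow. A pseudocount of 1 put 6.17% of genes higher and 1.90% lower by 1 or more, with 5 glycolysis genes, and ratios of mean RPM put 1.24% higher and 1.59% lower, with 5 naive and 0 G2 and mitosis genes. Without the filter, which adds low genes to the total, 0.891% were higher and 0.102% lower. Lower genes were 0.464% with the limit at 100 RPM and 0.65% in XGFPhigh alone. G2 and mitosis genes were 3 against other wells with *Sycp3* below 400 RPM, 3 in *Dazl*-positive wells, 12 in XGFP+ constitutive alone and 0 in XGFPhigh alone. ATF4 genes were 3 with the limit at 400 RPM and 3 in XGFP+ constitutive alone, and glycolysis genes 9 in XGFPhigh alone. The remaining counts and shares kept within their bounds. The leading genes and *Tdgf1* kept the sign of their difference in every alternative run. The leading genes had been picked for the same sign in both populations, so this is no support for them. Members of the lists did not all keep it: *Top2a*, *Cenpf*, *Dppa3* and *Nanos3* had opposite signs in XGFP+ constitutive alone and in XGFPhigh alone. Size factors in place of totals moved the median of all genes by 0.00273.

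In bulk, the replicate block gave 2178 higher and 1992 lower genes over 16 libraries and changed no call among the markers and leading genes. The block within the 8 PGCLC libraries, chosen after seeing the data, gave 2477 and 2755 and changed 6 of these calls. Leaving out each library gave 1670 to 1935 higher and 1366 to 1704 lower genes. *Klf2*, at 0.014, ranged from −0.017 (without XGFP+ replicate 2) to 0.060 (without XGFP+ replicate 3), and was also below 0 without XGFP+ replicate 4 (−0.0064) or XGFP− replicate 1 (−0.0028). *Slc7a3* missed the threshold with edgeR (adjusted p 1.46e-03) and in the 8 libraries alone (1.69e-03). The other causes were not tested. An alternative with *Xist* kept in the allelic ratio was not run, since no ratio is given for it.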
